A study of Homo sapiens with 2 samples.

Results

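CDX1, CDX2, HNF4A, GATA4, GATA6, FOXA2, KLF5 and ELF3 are transcription factors of the gut epithelium, and they were followed in colon organoids cultured with or without inflammatory cytokines. The 8 genes were chosen by symbol, and all 8 were found among the 36601 genes listed for the 2 libraries. The organoids were differentiated from 1383D6, a human induced pluripotent stem cell line, so both libraries come from 1 line. The CNT library is from untreated organoids, and the 3CK library is from organoids exposed for 8 days to 3 cytokines, IL-1β, TNF-α and IFN-γ. Each condition is 1 library, captured with a 10x Genomics kit that reads the 3′ ends of transcripts and counts unique molecular identifiers (UMIs). There is therefore no replicate, no test between the conditions was possible, and every interval below is a 95% interval of counting error alone.

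Epithelial cells were taken as barcodes with at least 10000 UMIs, at least 2 EPCAM UMIs per 10000 and fewer than 5 collagen UMIs (COL1A1, COL1A2 and COL3A1 summed) per 10000. This gave 943 of 3257 barcodes in CNT and 717 of 1641 in 3CK, with 68374274 and 68058536 UMIs in all. No barcode was shared by the libraries. Levels are UMIs of a gene per 1000000 UMIs of a pool of cells (CPM). A 3′ count is not scaled by transcript length, so levels are compared for 1 gene between pools and not between genes. The epithelial label was checked with genes that the rule did not use. The comparison was with 335 CNT and 109 3CK barcodes with collagen at 5 or more and EPCAM under 2 per 10000 (collagen cells). These were thus also set apart by EPCAM. Barcodes at or above both limits, or below both, were in neither pool. The epithelial cadherin CDH1 was at 141 and 252 CPM in the epithelial cells of CNT and 3CK and at 15.1 and 9.45 CPM in the collagen cells, and the tight junction gene CLDN7 at 396 and 597 CPM against 13.0 and 36.5 CPM. The keratin KRT8 did not part them in CNT, at 3087 CPM in epithelial and 3287 CPM in collagen cells.

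The epithelial cells were split by transthyretin (TTR), a plasma protein gene of the liver, into cells with under 50, 50 to 500 and over 500 TTR UMIs per 10000. CNT held 81, 365 and 497 cells in these bands and 3CK held 221, 427 and 69. TTR was itself lower in 3CK, with a median of 536 per 10000 in CNT and 104 in 3CK, so a band need not hold the same kind of cell in both libraries. TTR took 6.61% of all epithelial UMIs in CNT and 1.95% in 3CK, which enters the CPM of every other gene.

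Some epithelial barcodes were very rich in MALAT1, a long noncoding RNA that stays in the nucleus. More than 200 MALAT1 UMIs per 10000 were found in 93 CNT barcodes (9.86%, exact interval 8.03% to 11.9%) and in 119 3CK barcodes (16.6%, exact interval 13.9% to 19.5%). Their share was 44.4%, 14.2% and 1.01% over the rising TTR bands of CNT and 34.8%, 9.60% and 1.45% over those of 3CK. They were shallower, with a median of 40320 UMIs in CNT and 56013 in 3CK against 71432 and 100555 in the other epithelial cells. Their median mitochondrial share was higher, 4.71% and 5.96% against 2.35% and 2.10%. The threshold of 200 was chosen after these values were seen, and the values of the members without these barcodes are given below.

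The intestinal epithelium is made from endoderm, and its identity is set by layers of such factors. FOXA2, GATA4 and GATA6 act early in endoderm and open chromatin, HNF4A drives enterocyte and hepatocyte genes such as those of apolipoproteins, and CDX1 and CDX2 are the homeobox factors that give the posterior gut its intestinal character. In the adult, GATA4 is known from the upper small intestine and is low in colon, while GATA6 is found along the whole intestine. KLF5 is a Krüppel-like factor of proliferating crypt cells. ELF3 is an ETS factor of epithelia that inflammatory cytokines are known to induce through NF-kB in several cell types.

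The genes lie on several chromosomes, CDX2 sharing 1 with KLF5 and HNF4A 1 with FOXA2 (GRCh38, GENCODE annotation). CDX1 spans 150166778 to 150184558 of chromosome 5 on the plus strand, and CDX2 27960918 to 27969315 of chromosome 13 on the minus strand. KLF5 is also on chromosome 13, at 73054976 to 73077541 on the plus strand. HNF4A spans 44355699 to 44432845 of chromosome 20 on the plus strand and FOXA2 22580998 to 22585455 of the same chromosome on the minus strand. GATA6 lies at 22169589 to 22202528 of chromosome 18 and ELF3 at 202007945 to 202017183 of chromosome 1, both on the plus strand.

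Promoter windows are shown for 4 members whose levels the results turn on: ELF3, the one member at nearly 2-fold higher in 3CK, CDX2, whose level was nearly equal in the libraries, and HNF4A and GATA6, which were lower in 3CK. Each window runs from 250 bases before to 50 bases after a start site, is taken from RefSeq on GRCh38.p14 and is written 5′ to 3′ on the gene's strand. Capitals mark matches to motifs searched on both strands, and no match overlapped another. The letters searched were TTTATG for the caudal factors and AGATAA for the zinc-finger factors of the GATA family. Those for the nuclear receptor HNF4 were CAAAGTCCA and those for the forkhead factors were TGTTTAC. The site of the ETS family was searched as ACCGGAAG and the site of Krüppel-like factors as GGGCGTGG, and NF-kB was searched by its consensus. The windows are chr1:202010337-202010636 for ELF3, chr13:27969266-27969565 for CDX2, chr20:44355449-44355748 and chr20:44400989-44401288 for the upstream and downstream starts of HNF4A, and chr18:22169339-22169638 for GATA6.
ELF3: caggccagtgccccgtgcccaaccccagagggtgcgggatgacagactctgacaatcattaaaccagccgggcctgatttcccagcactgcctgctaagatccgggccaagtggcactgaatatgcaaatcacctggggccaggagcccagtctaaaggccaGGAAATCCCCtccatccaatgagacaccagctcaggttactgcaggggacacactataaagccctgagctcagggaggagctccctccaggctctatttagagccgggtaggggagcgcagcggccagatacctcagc
CDX2: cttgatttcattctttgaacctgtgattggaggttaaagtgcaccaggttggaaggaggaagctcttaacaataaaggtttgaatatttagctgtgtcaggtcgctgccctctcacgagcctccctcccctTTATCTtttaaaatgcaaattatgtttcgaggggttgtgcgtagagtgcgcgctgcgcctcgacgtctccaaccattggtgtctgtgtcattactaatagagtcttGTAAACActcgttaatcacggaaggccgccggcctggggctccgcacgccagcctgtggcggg
HNF4A upstream start: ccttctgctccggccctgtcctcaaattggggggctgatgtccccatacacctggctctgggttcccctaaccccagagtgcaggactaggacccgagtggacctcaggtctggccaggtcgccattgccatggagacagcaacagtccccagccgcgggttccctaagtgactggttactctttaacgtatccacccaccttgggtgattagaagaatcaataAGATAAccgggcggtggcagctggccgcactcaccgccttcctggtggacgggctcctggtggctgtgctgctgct
HNF4A downstream start: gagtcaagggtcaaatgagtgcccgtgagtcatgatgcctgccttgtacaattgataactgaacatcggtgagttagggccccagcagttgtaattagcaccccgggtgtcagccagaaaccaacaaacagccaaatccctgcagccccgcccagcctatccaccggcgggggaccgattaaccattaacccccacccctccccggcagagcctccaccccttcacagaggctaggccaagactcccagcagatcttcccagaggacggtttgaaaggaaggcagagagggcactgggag
GATA6: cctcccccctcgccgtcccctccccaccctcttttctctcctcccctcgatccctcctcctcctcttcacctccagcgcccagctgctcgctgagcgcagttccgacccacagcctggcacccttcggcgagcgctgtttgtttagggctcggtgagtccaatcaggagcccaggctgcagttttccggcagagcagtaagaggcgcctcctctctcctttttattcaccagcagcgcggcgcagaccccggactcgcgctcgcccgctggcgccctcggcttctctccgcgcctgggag

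The ELF3 window held 1 match to the NF-kB consensus, 88 bases before the start site, and 5.91% of the 35116 RefSeq promoter windows held at least 1. The CDX2 window held 1 GATA match and 1 FOXA match, which were found in 10.3% and 3.42% of all windows. The upstream HNF4A window held 1 GATA match, and the downstream HNF4A window and the GATA6 window held none of the motifs searched. Each is a match of letters, and binding was not measured. A 3′ count does not tell the starts of HNF4A apart.

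CDX2, the homeobox factor that defines intestine against other endoderm, was at nearly the same level in both libraries. It stood at 81.4 CPM in CNT (5568 UMIs, 79.3 to 83.6) and 83.3 CPM in 3CK (5668 UMIs, 81.1 to 85.5), a log2 ratio of 0.03 (-0.02 to 0.09) that turned to -0.09 when the totals left out TTR, mitochondrial and ribosomal genes. Its level differed between the TTR bands of each library. In CNT it was 52.7 CPM under 50, 83.8 CPM at 50 to 500 and 83.9 CPM over 500. In 3CK it was 60.7, 88.3 and 117 CPM in the same order, and the 3CK cells with TTR over 500 were the highest of the 6 pools, 0.48 above CNT on the log2 scale (0.36 to 0.60). The pools at 83.8, 83.9 and 88.3 CPM had overlapping CPM intervals, although the interval of the log2 ratio between 88.3 and 83.9 CPM left out 0.

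With all TTR bands together, CDX2 was spread more widely over the cells of 3CK at nearly the same mean. The median epithelial cell had 68.0 CPM in CNT, against 56.8 CPM in 3CK, the lower quartile 30.3 and 13.7 CPM, and the 90th percentile 174 and 205 CPM. With every cell thinned to 10000 UMIs, a CDX2 UMI was found in 50.7% (47.4% to 53.9%) in CNT and in 43.1% (39.4% to 46.8%) in 3CK, while the mean number per thinned cell was 0.839 and 0.820. Without thinning the shares were 87.2% and 82.3%. With the bands together, fewer 3CK cells carried a CDX2 UMI, and those that did carried more. Within bands the intervals of the shares overlapped. In CNT and 3CK the shares were 32.1% and 33.5% under 50, 50.7% and 45.7% at 50 to 500, and 53.7% and 58.0% over 500. What part the mix of bands has in the spread was not tested.

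CDX1, the second caudal homeobox factor, was scarce in both libraries. It was at 15.1 CPM in CNT (1035 UMIs, 14.2 to 16.1) and 13.6 CPM in 3CK (924 UMIs, 12.7 to 14.5), a log2 ratio of -0.16 (-0.29 to -0.03). The direction differed between the bands. CNT gave 26.2, 17.9 and 11.8 CPM from low to high TTR and 3CK gave 15.6, 12.4 and 15.9 CPM, so that the log2 ratio was -0.74 (-1.04 to -0.44), -0.53 (-0.72 to -0.35) and 0.44 (0.10 to 0.76). Without the MALAT1-rich barcodes the ratio under 50 was -0.39 (-0.73 to -0.04). In thinned cells under 50 the share with a CDX1 UMI was 9.88% in CNT and 11.8% in 3CK. The gene was concentrated in few cells: the median cell had none in either library, and 9.86% of CNT and 10.2% of 3CK thinned cells had a UMI.

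HNF4A, the nuclear receptor of enterocytes and hepatocytes, was lower in 3CK. It was at 42.0 CPM in CNT (2874 UMIs, 40.5 to 43.6) and 24.5 CPM in 3CK (1666 UMIs, 23.3 to 25.7), a log2 ratio of -0.78 (-0.87 to -0.69). In pooled UMIs the difference lay in the cells with TTR at 50 or more. At 50 to 500 HNF4A was at 49.4 CPM in CNT, against 19.4 CPM in 3CK, 2.55-fold lower (log2 -1.35, -1.48 to -1.22). Over 500 it was at 37.4 and 17.1 CPM (log2 -1.13, -1.43 to -0.84). Under 50 it was at 40.5 and 38.7 CPM (log2 -0.07, -0.29 to 0.16), and these intervals overlap.

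GATA6, the GATA factor of the whole intestine, showed the same layout. It was at 109 CPM in CNT (7440 UMIs, 106 to 111) and 57.6 CPM in 3CK (3923 UMIs, 55.8 to 59.5), a log2 ratio of -0.92 (-0.97 to -0.86). At TTR 50 to 500 it was at 122 and 53.0 CPM, 2.31-fold lower in 3CK (log2 -1.21, -1.28 to -1.13). Over 500 the levels were 106 and 62.9 CPM (log2 -0.76, -0.91 to -0.60). Under 50 they were 64.5 and 66.9 CPM, with overlapping intervals, or 84.7 and 75.7 CPM with each cell weighted equally. In thinned cells 60.4% of CNT (57.2% to 63.6%) and 40.03% of 3CK (36.4% to 43.7%) had a GATA6 UMI, against 92.5% and 88.4% without thinning.

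GATA4, known from the upper small intestine rather than the colon, was present in both libraries and lower in 3CK. It was at 43.8 CPM in CNT (2998 UMIs, 42.3 to 45.4) and 24.7 CPM in 3CK (1683 UMIs, 23.6 to 25.9), a log2 ratio of -0.83 (-0.91 to -0.74). From low to high TTR it was at 39.2, 52.6 and 38.8 CPM in CNT, whereas 3CK gave 30.9, 22.2 and 23.8 CPM. The log2 ratio was -0.34, -1.24 and -0.70 in these bands. All 3 pools of 3CK were below all 3 of CNT, although without the MALAT1-rich barcodes GATA4 under 50 was at 20.7 CPM in CNT, against 24.5 CPM in 3CK.

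FOXA2, the forkhead factor of definitive endoderm, was modestly lower in 3CK. It was at 50.3 CPM in CNT (3436 UMIs, 48.6 to 52.0) and 40.7 CPM in 3CK (2772 UMIs, 39.2 to 42.3), a log2 ratio of -0.30 (-0.38 to -0.23). It was lowest in the cells with TTR under 50 of either library, at 30.6 CPM in CNT, against 35.8 CPM in 3CK. At 50 to 500 it was at 52.3 and 42.4 CPM (log2 -0.30, or 0.08 with trimmed-mean scaling factors) and over 500 at 51.7 and 43.8 CPM.

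KLF5, the Krüppel-like factor of crypt cells, was at 49.0 CPM in CNT (3350 UMIs, 47.4 to 50.7) and 53.7 CPM in 3CK (3656 UMIs, 52.0 to 55.5). The log2 ratio was 0.13 (0.06 to 0.20), and it was -0.03 when the 3CK bands were given the CNT mix. Within bands KLF5 was lower in 3CK under 50 (88.2 against 67.8 CPM) and at 50 to 500 (59.5 against 48.9 CPM, log2 -0.28, or 0.10 with trimmed-mean scaling factors) and higher over 500 (36.6 against 44.8 CPM). KLF5 was thus highest where TTR was low in both libraries.

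ELF3, the ETS factor of epithelia, was the one member clearly higher in 3CK. It was at 51.9 CPM in CNT (3549 UMIs, 50.2 to 53.6) and 103 CPM in 3CK (6995 UMIs, 100.4 to 105), 1.98-fold higher (log2 0.99, 0.93 to 1.04). The share of thinned cells with an ELF3 UMI was 31.8% in CNT (28.8% to 34.9%) and 55.0% in 3CK (51.2% to 58.6%), and the median cell had 27.3 and 81.6 CPM. The size of the difference depended on the band. Under 50 ELF3 was at 107 CPM in CNT, against 120 CPM in 3CK (log2 0.17, 0.03 to 0.30), at 50 to 500 at 58.6 and 99.2 CPM (log2 0.76, 0.67 to 0.85) and over 500 at 39.9 and 75.7 CPM (log2 0.92, 0.77 to 1.08). The untreated cells with the least TTR thus already had as much ELF3 as the treated cells at 50 to 500, with overlapping intervals.

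**Figure D1:**
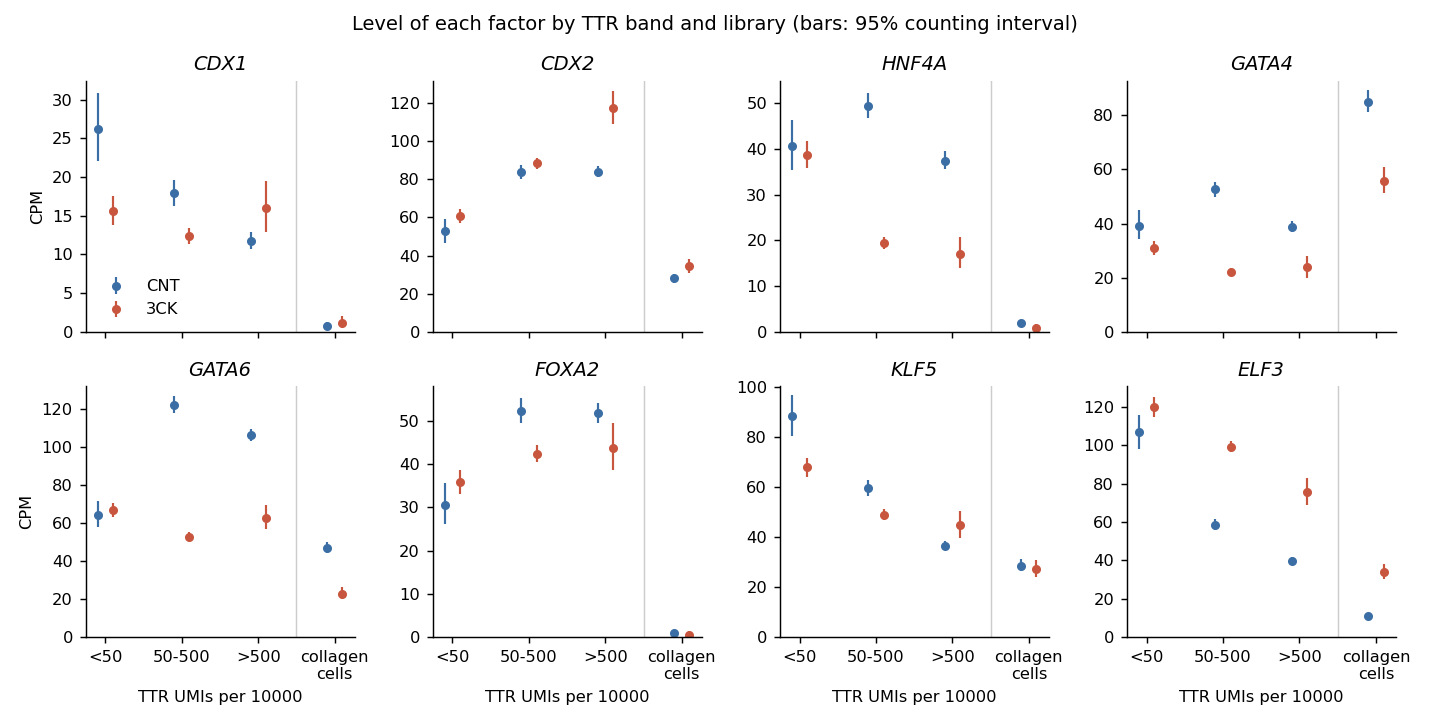
Level of each factor in UMIs per 1000000 (CPM, vertical axis from 0) in the epithelial cells of the 3 TTR bands and in the collagen cells, for the CNT (blue) and 3CK (red) libraries; points are pooled cells and bars the 95% counting interval. HNF4A, GATA4 and GATA6 are lower in 3CK at TTR 50 to 500 and over 500, ELF3 is higher in 3CK, and CDX2 follows the TTR band in both.

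A member was counted as past 2-fold where its level differed at least 2-fold between the pools. In all epithelial cells 0 of 8 members were 2-fold higher and 0 were 2-fold lower in 3CK, against 8.07% and 7.74% of the 9782 genes that reached 10 CPM in 1 pool or both. No test is possible with 1 library a group, so no count at an unadjusted p can stand beside it. In the cells with TTR under 50 the counts were again 0 and 0, against 6.05% and 8.75% of genes. At 50 to 500 none was 2-fold higher (5.59% of genes) and 3 were 2-fold lower (HNF4A, GATA4 and GATA6), against 14% of genes. Over 500 none was 2-fold higher (5.29% of genes) and 1 was 2-fold lower (HNF4A), against 6.74% of genes.

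The median log2 ratio of the 8 members was -0.23 in all epithelial cells, beside 0.06 over all genes. It was -0.01 under 50, -0.42 at 50 to 500 and 0.03 over 500, beside -0.09, -0.24 and -0.10 over all genes. The members did not move as a group: 3 were above 0 and 5 below in all epithelial cells. With between-library scaling factors from the trimmed mean of ratios (TMM), the median of all genes at 50 to 500 moved from -0.24 to 0.15 and the split of 2-fold calls from 5.59% higher and 14% lower to 9.40% and 8.03%. HNF4A was then at -0.97, GATA4 at -0.86 and GATA6 at -0.82, with their sign kept and their size just under 2-fold.

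**Figure D2:**
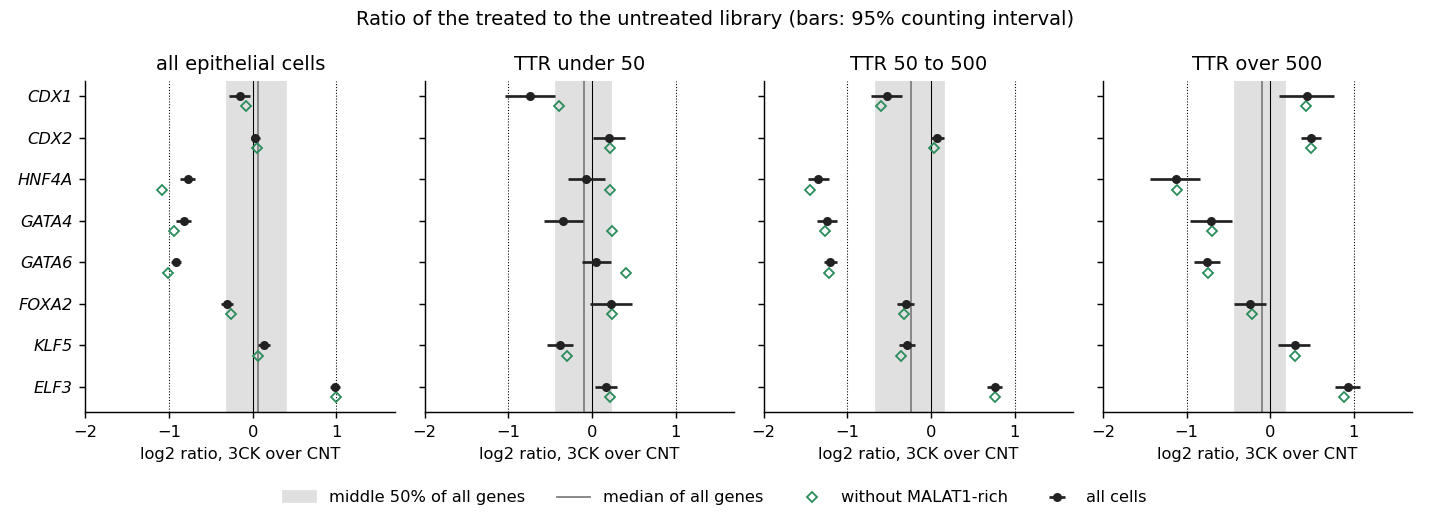
Log2 ratio of the 3CK to the CNT level for each factor in all epithelial cells and in the 3 TTR bands (black points, bars are the 95% counting interval), and the same without MALAT1-rich barcodes (green diamonds). Grey shows the middle 50% and the median of all genes tested, and dotted lines mark 2-fold; HNF4A, GATA4 and GATA6 lie below the grey range at TTR 50 to 500 and over 500 and ELF3 above it.

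The mix of bands also differed, 3CK having more cells with little TTR. With the 3 bands of 3CK weighted by the UMI shares of CNT, HNF4A in 3CK was at 19.6 instead of 24.5 CPM, and its log2 ratio to CNT was -1.10 instead of -0.78. ELF3 was at 87.7 instead of 103 CPM (log2 0.76) and CDX2 at 102 instead of 83.3 CPM (log2 0.33). GATA4 stood at -0.88 and GATA6 at -0.87 with this mix, close to their values without it.

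Along TTR within a library some members were higher and some lower in TTR-rich cells, and others differed little. Over 500 against under 50, HNF4A (log2 -0.11) and GATA4 (-0.02) in CNT had intervals that include 0. So did CDX1 (0.03) and GATA6 (-0.09) in 3CK. In CNT, TTR over 500 against under 50 gave 0 members 2-fold higher (3.49% of genes) and 3 members 2-fold lower, against 33.8% of genes: CDX1 (log2 -1.15), KLF5 (-1.27) and ELF3 (-1.42). In 3CK it gave 0 higher (3.09% of genes) and 1 lower (HNF4A, -1.18), against 36% of genes. The median over all genes was -0.66 in CNT and -0.67 in 3CK, so most genes had a lower CPM in the TTR-rich cells, and members are read against it. CDX2 stood well above that median, at 0.67 in CNT and 0.95 in 3CK, and FOXA2 at 0.75 and 0.29. With TMM factors the split of 2-fold calls in this comparison became 17.7% higher and 9.55% lower in CNT and 10.3% and 17.1% in 3CK, and other members were then past 2-fold. In CNT these were CDX2 (1.601), GATA6 (1.65) and FOXA2 (1.68), all higher over 500, with CDX1 at -0.22, KLF5 at -0.34 and ELF3 at -0.49, and in 3CK it was CDX2 (1.58), with HNF4A at -0.54. Which members pass 2-fold along TTR thus depended on the scaling.

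The epithelial cells of each library were ordered by TTR and divided into 10 equal groups to follow each member. In CNT, HNF4A was at 39.9 CPM in the group with the least TTR, at 58.8 CPM in the next, and at 25.8 CPM in the group with the most. In 3CK it was at 46.9 CPM in the lowest group and between 15.0 and 19.4 CPM in the upper 6. GATA6 in CNT was at 70.2 CPM in the lowest group, 151 CPM in the second and 77.0 CPM in the highest. In 3CK it stayed between 44.0 and 71.1 CPM. CDX2 in 3CK was at 43.2 CPM in the lowest group and at 123 and 114 CPM in the upper 2. ELF3 in CNT was at 100.3 CPM in the lowest group and 34.4 CPM in the highest.

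**Figure D3:**
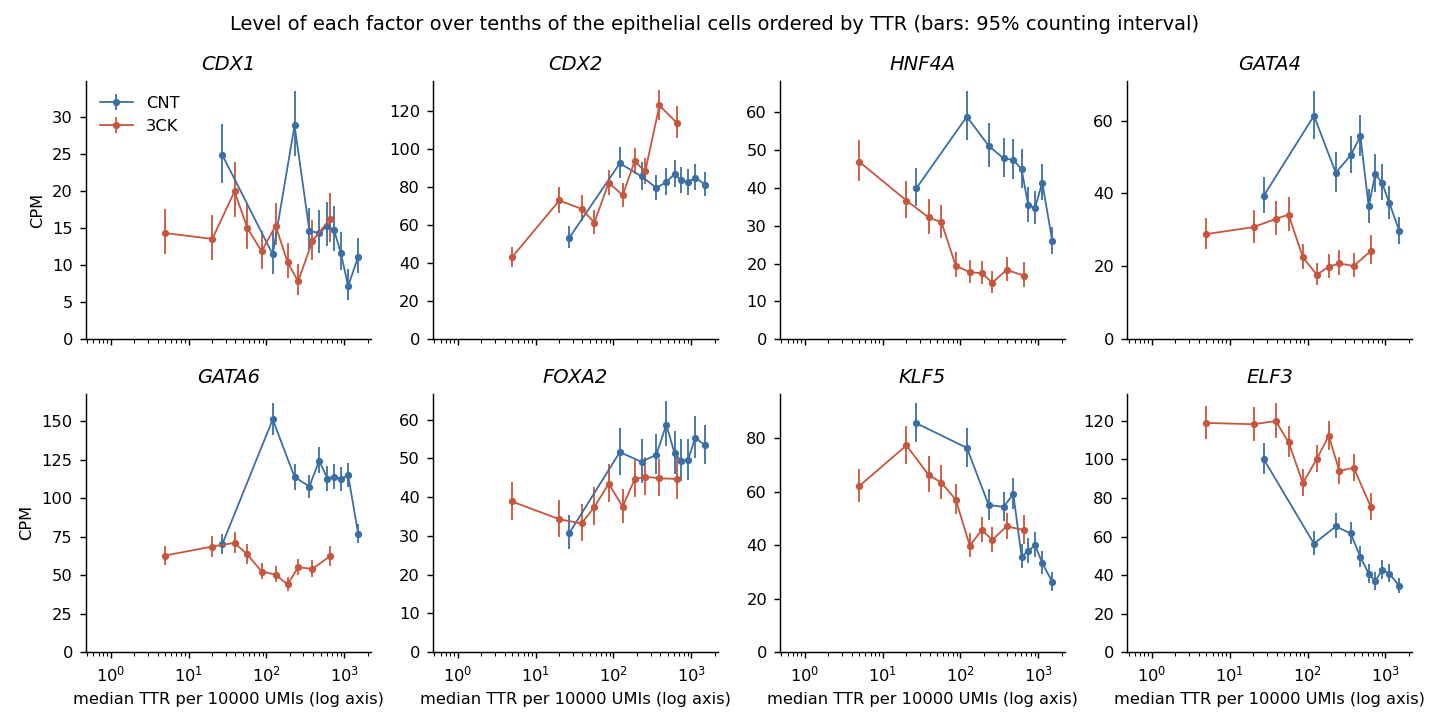
Level of each factor in CPM (vertical axis from 0) in 10 equal groups of the epithelial cells of each library ordered by TTR, placed at the group's median TTR per 10000 UMIs (log axis); bars are the 95% counting interval. The CNT curves of HNF4A, GATA4 and GATA6 lie above those of 3CK from a median TTR of 121 in CNT upward. The gap is widest near there and narrower at higher TTR. CDX2 in 3CK is highest in the upper 2 groups.

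HNF4A, GATA4, GATA6, KLF5 and ELF3 were all higher in the pooled MALAT1-rich barcodes than in the pooled other epithelial cells of the same library. HNF4A was at 85.7 against 39.1 CPM in CNT and 72.5 against 18.4 CPM in 3CK. GATA4 was at 93.1 against 40.5 CPM in CNT and 53.0 against 21.1 CPM in 3CK. KLF5 was at 93.8 against 46.0 CPM in CNT and 100.0 against 47.8 CPM in 3CK. GATA6 was at 157 against 106 CPM in CNT and 99.1 against 52.4 CPM in 3CK. ELF3 was at 92.6 against 49.1 CPM and 144 against 97.6 CPM. CDX2 and FOXA2 went the opposite way in these pools of both libraries, CDX2 at 56.2 against 83.1 CPM and 61.6 against 86.0 CPM, FOXA2 at 35.9 against 51.2 CPM and 25.8 against 42.6 CPM. CDX1 was at 15.0 against 15.1 CPM in CNT and 7.42 against 14.4 CPM in 3CK. MALAT1-rich barcodes lie mostly in the lower TTR bands, so the same comparison was made within bands. FOXA2 was lower in them at 50 to 500 in both libraries (log2 -0.62 in CNT and -0.53 in 3CK) and under 50 (-0.66 and -0.76). CDX2 was lower at 50 to 500 (-0.71 and -0.35), but under 50 it was at -0.11 and -0.13, with intervals that include 0. Over 500 only 5 CNT barcodes and 1 3CK barcode were MALAT1-rich, and in the 5 of CNT FOXA2 was higher, at 92.7 against 51.3 CPM (log2 0.86, 0.34 to 1.32). KLF5 was at -0.29 there, with an interval that includes 0.

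**Figure D4:**
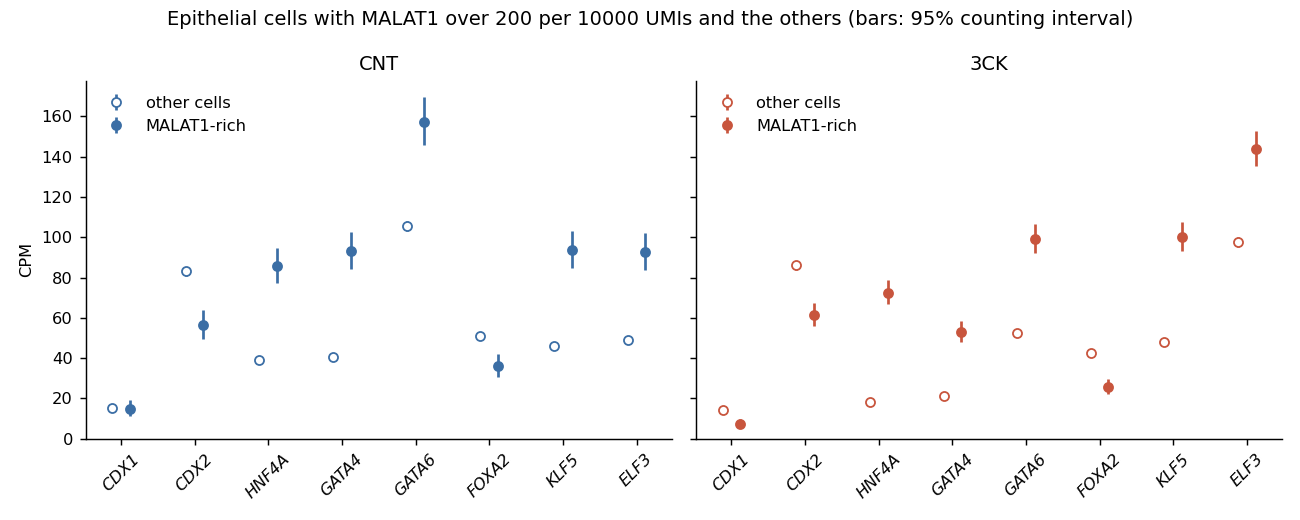
Level of each factor in CPM (vertical axis from 0) in epithelial barcodes with more than 200 MALAT1 UMIs per 10000 (filled) and in the other epithelial cells (open), for CNT (left) and 3CK (right); bars are the 95% counting interval, smaller than the open points. With all TTR bands pooled, HNF4A, GATA4, GATA6, KLF5 and ELF3 are higher in the MALAT1-rich barcodes of both libraries and CDX2 and FOXA2 lower.

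The difference between the libraries at TTR 50 to 500 was as large without the MALAT1-rich barcodes. HNF4A was then at 45.4 CPM in CNT, against 16.7 CPM in 3CK (log2 -1.44), GATA4 at 47.3 and 19.6 CPM (log2 -1.27) and GATA6 at 116 and 49.4 CPM (log2 -1.23). Over all epithelial cells 2 members were then 2-fold lower, HNF4A (log2 -1.09) and GATA6 (log2 -1.01), against 9.04% of genes, and 0 were 2-fold higher, against 7.59%. In the cells with TTR under 50 the picture differed. HNF4A was at 20.5 CPM in CNT, against 23.7 CPM in 3CK, GATA4 at 20.7 and 24.5 CPM, and GATA6 at 42.5 and 56.3 CPM (log2 0.41, 0.16 to 0.66). In CNT, HNF4A and GATA4 were then higher over 500 than under 50, by 0.86 and 0.90 on the log2 scale, where all cells gave -0.11 and -0.02. In 3CK the same comparison gave -0.46 for HNF4A, where all cells gave -1.18. What part the MALAT1-rich barcodes, their depth and their mitochondrial share have in the levels was not tested.

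The factors also differed in their level in the collagen cells. FOXA2 was at 50.3 CPM in epithelial and 0.94 CPM in collagen cells of CNT, and HNF4A at 42.0 and 1.97 CPM. CDX1 was at 15.1 and 0.79 CPM. In 3CK the collagen cells had 0.63, 0.84 and 1.15 CPM of these 3. CDX2, by contrast, was at 28.1 CPM (25.8 to 30.5) in the collagen cells of CNT and 34.3 CPM (30.7 to 38.3) in those of 3CK. KLF5 was at 28.6 and 27.3 CPM there. In thinned cells 21.2% of the CNT collagen cells had a CDX2 UMI and 0.896% a FOXA2 UMI, against 50.7% and 34.1% of the epithelial cells, at median depths of 52449 and 68469 UMIs. The log2 ratio of collagen to epithelial cells in CNT was -1.54 for CDX2 and -5.75 for FOXA2, so the members did not share 1 ratio. The epithelial markers KRT8 and KRT18 were also high in the collagen cells, and what part mixed barcodes have in the CDX2 level there was not tested.

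GATA4 was the one member higher in collagen than in epithelial cells, at 85.0 against 43.8 CPM in CNT and 55.7 against 24.7 CPM in 3CK. GATA6 was at 47.0 CPM in CNT, against 23.0 CPM in 3CK collagen cells, a log2 ratio of -1.03 (-1.25 to -0.82) close to that of the epithelial cells. ELF3 was at 11.1 CPM in CNT, against 34.0 CPM in 3CK collagen cells, a log2 ratio of 1.61 (1.36 to 1.86). The directions of GATA4, GATA6 and ELF3 between the libraries were thus the same in the epithelial and the collagen cells.

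The members were then looked at together in single cells thinned to 10000 UMIs, a depth that limits how many of them a cell can show. The median epithelial cell had a UMI of 3 members in CNT and of 2 in 3CK, and none was detected in 7.00% and 9.07% of cells. KLF5 went with CDX1: it was found in 61.3% of the 93 CNT cells with a CDX1 UMI and in 30.6% of the 850 without, and in 3CK in 57.5% of 73 and 35.1% of 644. GATA6 was found in 46.9% of the 309 3CK cells with CDX2 and in 34.8% of the 408 without, and in CNT in 62.8% of 478 and 58.1% of 465. Cells of 1 library are not replicates, and these shares describe 2 libraries.

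Small groups of cells set by other genes had their own levels. Cells with at least 10 FABP2 and RBP2 UMIs per 10000, genes of absorptive enterocytes, numbered 42 in CNT and 6 in 3CK. CDX1 was at 46.0 CPM in those of CNT (38.9 to 54.1), against 15.1 CPM in all epithelial cells, and at 70.3 CPM in those of 3CK (48.1 to 99.3). FOXA2 was low there, at 23.2 and 22.0 CPM. Cells with at least 2 MKI67 and TOP2A UMIs per 10000, genes of dividing cells, numbered 12 and 18, and held 59.4 CPM of HNF4A in CNT and 18.2 CPM in 3CK.

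Other transcription factors of endoderm and liver were mostly lower in 3CK over all epithelial cells and at TTR 50 to 500. Of 15 listed, 13 were below 0 and 5 were 2-fold lower, against 7.74% of all genes, with a median log2 ratio of -0.81 beside 0.06 over all genes. Here and in the lists below, listed genes count from 1 CPM, whereas values over all genes cover those at 10 CPM or more. The shares are thus not at the same threshold. At TTR 50 to 500, 14 of 15 were below 0 and 8 were 2-fold lower, against 14% of all genes, with a median of -1.27 beside -0.24. In the other bands they were split. Under 50, 6 were above 0 and 9 below, with a median of -0.11 beside -0.09, and over 500, 7 were above 0 and 8 below, with a median of -0.13 beside -0.10. HHEX, a homeobox factor of early liver, had the smallest ratio (log2 -1.85, at 3.38 and 0.94 CPM), and FOXA1, the relative of FOXA2, was at 63.9 CPM in CNT, against 19.1 CPM in 3CK (log2 -1.74). TBX3 had the highest level (97.4 and 62.5 CPM, log2 -0.64) and PROX1 the largest ratio (9.58 and 18.6 CPM, log2 0.96). FOXA1 and FOXA2 thus differed in size, -1.74 against -0.30.

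Intestinal transcription factors other than the members moved both ways. Of 14 with at least 1 CPM, 8 were above 0 and 6 below. Of these 3 were 2-fold higher and 1 lower, against 8.07% and 7.74% of all genes. The median was 0.30, or -0.16 without the MALAT1-rich barcodes. At TTR 50 to 500, 10 of 15 were below 0, with a median of -0.56 beside -0.24 over all genes. In that band 3 were 2-fold higher and 5 lower, against 5.59% and 14% of all genes. Under 50 and over 500 the medians were 0.08 and 0.13, beside -0.09 and -0.10. ASCL2, a factor of intestinal stem cells, was at 0.54 CPM in CNT, against 12.3 CPM in 3CK (log2 4.50). EHF, an ETS factor related to ELF3, was at 4.18 and 23.9 CPM (log2 2.51), and SOX9 at 19.4 and 46.2 CPM (log2 1.25). MAF, a factor of mature enterocytes, had the smallest ratio (41.0 and 19.3 CPM, log2 -1.09). TCF7L2, which carries Wnt signals, had the highest level (139 and 180 CPM, log2 0.37).

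Factors of neighbouring endoderm regions were scarce: 4 of 8 listed had at least 1 CPM. GATA5, the third GATA factor of endoderm, was at 16.5 CPM in CNT, against 23.3 CPM in 3CK (log2 0.50), opposite in direction to GATA4 and GATA6. PDX1, of duodenum and pancreas, was at 14.4 and 6.41 CPM (log2 -1.17). TP63, of squamous epithelium, had the smallest ratio (1.80 and 0.73 CPM, log2 -1.29).

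Genes known as CDX2 targets were mostly lower in 3CK although CDX2 was level. Of 16, 13 were below 0 and 9 were 2-fold lower, against 7.74% of all genes at 10 CPM or more, with a median of -1.56. FABP2, an enterocyte fatty acid binder, was at 192 CPM in CNT, against 19.3 CPM in 3CK (log2 -3.31). CDH17, an intestinal cadherin, was at 313 and 183 CPM (log2 -0.77). The exceptions were the mucin MUC13, which had the highest mean level (165 and 347 CPM, log2 1.07), CA1 (log2 1.13) and ABCB1, which had the largest ratio (1.05 and 2.98 CPM). In the cells with TTR over 500, where CDX2 was at 117 CPM in 3CK, 9 of 14 were below 0. The median there was -0.59 beside -0.10 over all genes. Under 50 it was -1.05 beside -0.09, and at 50 to 500 it was -1.69 beside -0.24.

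Of 16 genes known as HNF4A targets, 15 had at least 1 CPM and all 15 of these were lower in 3CK. Of them 11 were 2-fold lower, against 7.74% of all genes, with a median of -1.43 beside 0.06 over all genes. The apolipoprotein gene APOA1, the highest, was at 11345 CPM in CNT, against 5363 CPM in 3CK (log2 -1.08). PCK1, of gluconeogenesis, had the smallest ratio but was near 1 CPM in CNT (1.05 and 0.06 CPM). SERPINA1 had the largest ratio (904 and 717 CPM, log2 -0.33). In the cells with TTR under 50, where HNF4A was nearly level in pooled UMIs, the median was -0.43 beside -0.09, and 6 of 15 were above 0. At 50 to 500 it was -0.97 beside -0.24, with 1 of 15 above 0. Over 500, where HNF4A was 2-fold lower, it was -0.52 beside -0.10, with 4 of 14 above 0. In these bands 5, 7 and 3 targets were 2-fold lower, against 8.75%, 14% and 6.74% of all genes. Many of the listed targets are liver genes that also went with TTR: over 500 against under 50 their median was 2.26 in CNT and 2.10 in 3CK.

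**Figure D5:**
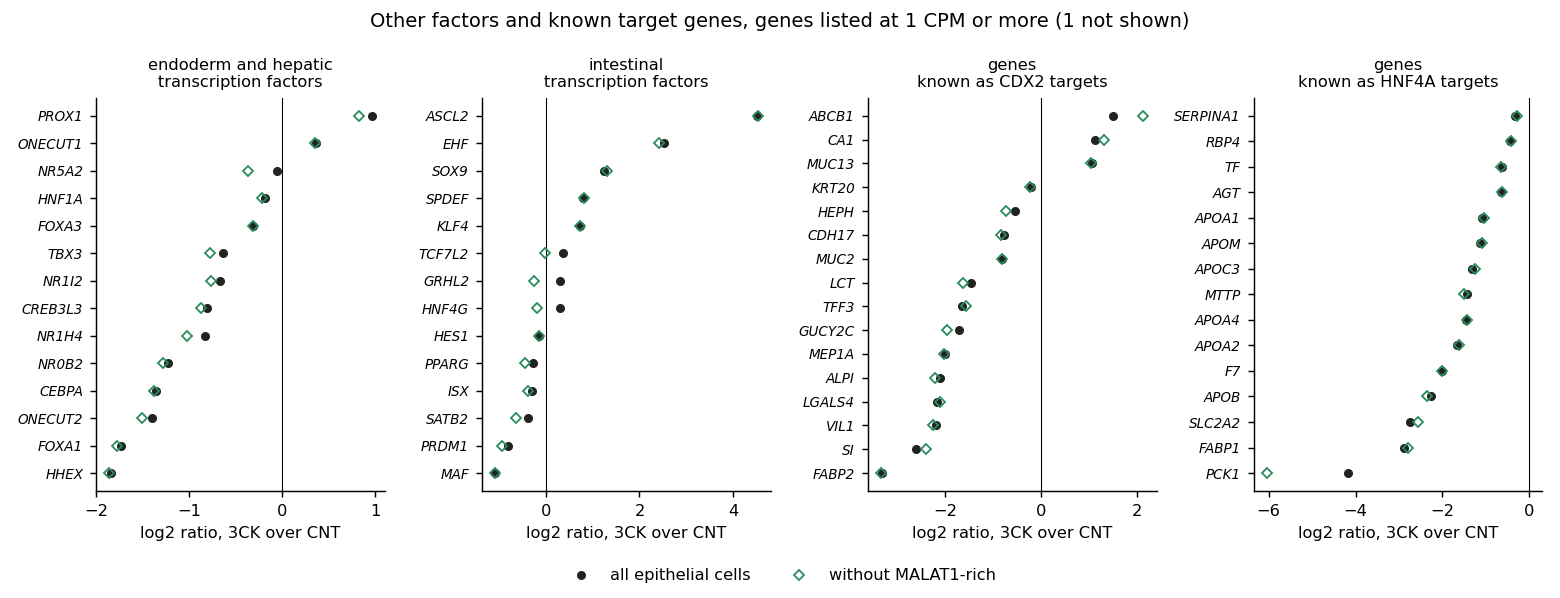
Log2 ratio of the 3CK to the CNT level (horizontal axis) for the listed genes that reached 1 CPM except 1 not shown, over all epithelial cells (black) and without MALAT1-rich barcodes (green). Endoderm and liver factors and the genes known as targets of CDX2 and HNF4A lie mostly below 0, and ASCL2, EHF and SOX9 stand above the other intestinal factors.

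Of 3 noncoding RNAs beside the members, 2 were 2-fold lower in 3CK over all epithelial cells, against 7.74% of all genes. GATA6-AS1, antisense to GATA6, was at 28.3 CPM in CNT, against 8.83 CPM in 3CK (log2 -1.68). No source at hand states how the counting used strand, so reads of GATA6 and GATA6-AS1 cannot be told apart with certainty. LINC00261, which neighbours FOXA2, was at 99.1 and 34.1 CPM (log2 -1.54), a larger difference than that of FOXA2. HNF4A-AS1 was at 2.08 and 2.25 CPM (log2 0.11) over all epithelial cells. At TTR 50 to 500, where HNF4A was 2-fold lower, HNF4A-AS1 was at 3.05 CPM in CNT, against 1.15 CPM in 3CK (log2 -1.41, -1.95 to -0.87). All 3 of these RNAs were thus 2-fold lower in that band, against 14% of all genes.

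The cytokine response itself was plain in the epithelial cells. All 7 early NF-kB and interferon targets listed were at least 2-fold higher in 3CK, against 8.07% of all genes, with a median of 4.57. CXCL10, a chemokine, had the largest ratio and the highest level (0.19 and 1768 CPM, log2 13.18), and NFKBIA, the inhibitor of NF-kB, the smallest (42.1 and 146 CPM, log2 1.79). Against these, ELF3 at 0.99 was a modest change. Of the epithelial markers 6 of 9 were above 0 (median 0.44), and the summed level of the mesenchymal markers was 1175 CPM in CNT, against 798 CPM in 3CK epithelial cells, mostly VIM, against 14398 and 9250 CPM in collagen cells.

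Genes most like each member were sought over 20 pools, the 10 groups by TTR of each library, by Pearson correlation of log2(CPM + 1) among 6562 genes with a mean of at least 20 CPM. The pools share 2 libraries, so these values describe likeness only. Among the 3 genes most like GATA6 were A1CF (r = 0.962) and PLS1 (0.960). DNAJC13 was most like HNF4A (0.981), followed by TSC22D1 (0.968) and CLCN3 (0.964). FAM126A (0.968), TLN2 (0.967) and CEP350 (0.960) were most like GATA4. ITGB4 (0.974), MAFF (0.974) and CAPN1 (0.973) were most like ELF3, and ATP8B1 (0.945), VPS41 (0.935) and SMARCC1 (0.935) most like KLF5. AGR3 (0.874), SHISA5 (0.869) and SPINK1 (0.869) were most like CDX2, and AC090204.1 (0.908), FRZB (0.903) and HPX (0.901) most like FOXA2. CDX1 had the weakest match, with PDHX (0.761), TOMM34 (0.741) and NDFIP2 (0.728).

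Among the members GATA4 went with GATA6 (r = 0.92) and with HNF4A (0.89) over the 20 pools, and ELF3 went against FOXA2 (-0.81) and GATA6 (-0.75). Within a library, over 10 pools, ELF3 and FOXA2 were at -0.74 in CNT and -0.70 in 3CK. ELF3 and GATA6, by contrast, were at -0.26 within CNT and 0.26 within 3CK, so they did not go against each other in both libraries. CDX2 and FOXA2 went together within CNT (0.90) and within 3CK (0.62). CDX2 and HNF4A went in opposite ways in 3CK (-0.82) and weakly together in CNT (0.22).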

How the data were processed

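The values deposited by the authors are raw UMI counts of each gene in each barcode for 1 CNT and 1 3CK library of colon organoids captured with a 3′ v3.1 kit per the labels. Cell Ranger 7.1.0 and the GRCh38 build are named in the submitters' processing notes. Other settings of the authors: not given in the sources used here.

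Barcodes with at least 500 genes and at most 20% mitochondrial UMIs were kept, and doublets were scored with Scrublet in scanpy 1.11.5, the highest scores being removed at 0.8% per 1000 barcodes (52 in CNT, 16 in 3CK). Median depth of the epithelial cells was 68469 UMIs in CNT and 93963 in 3CK. UMIs were summed per pool and scaled to CPM. In ratios, 3 UMIs stood in for a count of 0. Intervals at 95% are exact Poisson for CPM and Clopper-Pearson for shares; for a ratio, the Clopper-Pearson interval of 1 library's part of both counts was converted. Shares are of cells thinned to 10000 UMIs. The calculation was tested on simulated data.

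Named genes are the 8 members, for each list the highest level and the largest and smallest ratio among genes with at least 1 CPM, and the 3 genes most like each member. FOXA1, EHF, SOX9, CDH17, CA1, PDX1 and the markers CDH1, CLDN7, KRT8, KRT18 and VIM were named after their values were seen. The members and lists were chosen with earlier results of these data known. 157 of 158 list and marker genes were found, and 2 listed genes are not reported here by name. Alternatives for cells, bands, scaling and weights were tried. Python 3.11.15, numpy 2.4.6, scipy 1.17.1, pandas 2.3.3 and matplotlib 3.10.9 were used.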

Additional observations from a re-analysis of the deposited data

Results flagged for a closer look

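Some differences pointed in opposite ways in 2 groups of cells, with both intervals of counting error away from 0. None of these was tested, since there is 1 library per condition. The log2 ratio of 3CK to CNT for CDX1 was larger over 500 TTR UMIs per 10000 than under 50 by 1.18, and larger than at 50 to 500 by 0.97. The step of CDX1 from TTR 50 to 500 to over 500 differed between the libraries by the same 0.97. KLF5 differed likewise, by 0.67 against the cells under 50 and by 0.58 against those at 50 to 500. For CDX1 without the MALAT1-rich barcodes, the log2 ratio was -0.39 under 50 and 0.42 over 500.

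In pooled UMIs, the step from TTR under 50 to 50 to 500 was upward in CNT and downward in 3CK for 3 members. The difference of the log2 steps, 3CK minus CNT, was -1.28 for HNF4A, -0.90 for GATA4 and -1.26 for GATA6. With each cell weighted equally, HNF4A in CNT went from 65.7 to 61.7 CPM and GATA4 from 72.9 to 61.9 CPM. Of these members only GATA6, from 84.7 to 138 CPM, then kept the upward step in CNT. The next step, from 50 to 500 to over 500, was downward in CNT and upward in 3CK for GATA6, a difference of 0.45. MALAT1-rich barcodes made up 44.4% of the CNT and 34.8% of the 3CK cells under 50, and their part in these steps was not tested.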

How the results depend on the processing

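Cells, bands, scaling and weights were varied in 14 further settings, 12 of them planned and 2 chosen after the values were seen (without barcodes above 200 or above 50 MALAT1 UMIs per 10000), and the CNT mix of bands was also added after the values were seen. Of 48 values, 8 members in 6 comparisons, 28 kept their sign in every setting run and 20 changed sign in some setting, and of the 8 past 2-fold none changed sign. The median of the members in all epithelial cells, -0.23, ranged from -0.35 to -0.14. In all epithelial cells no member was past 2-fold, but 1 was with the CNT mix of bands (HNF4A), with TMM factors (ELF3), with each cell weighted equally (ELF3) and with totals without TTR, mitochondrial and ribosomal genes (GATA6), and 2 were without MALAT1-rich barcodes at either threshold. In these settings other than the CNT mix, 7.01% to 8.51% of all genes were 2-fold higher and 7.51% to 9.28% lower. At TTR 50 to 500, 3 members were past 2-fold. There were 1 with TMM factors (ELF3, against 9.40% of genes higher and 8.03% lower), 2 with cells thinned to 10000 UMIs (HNF4A and GATA6, against 16.1% lower) and 4 with 3 equal groups of each library by TTR (ELF3 added, against 8.59% higher and 9.67% lower). Over 500, 1 was, and 2 with TMM factors, with bands at 25 and 1000 and with 3 equal groups, where ELF3 was added and 6.06% to 9.09% of genes were 2-fold higher. With thinned cells the 1 past 2-fold over 500 was GATA6 (-1.38) in place of HNF4A (-0.65). Under 50, 0 were, and 1 with thinned cells (GATA4, -1.33, against 13.7% of genes lower). For TTR over 500 against under 50 in 3CK, 1 was past 2-fold, 0 with EPCAM at 5 or more, with thinned cells and without MALAT1-rich barcodes at either threshold, 2 with totals without TTR (CDX2 added) and 3 with bands at 25 and 1000 (CDX2 and KLF5 added). In these settings 14.02% to 44.95% of genes were 2-fold lower. In CNT that comparison kept 3 members past 2-fold with TMM factors, but these were CDX2, GATA6 and FOXA2, higher, in place of CDX1, KLF5 and ELF3, lower, since the factors moved the median of all genes from -0.66 to 0.27. Without MALAT1 above 200 per 10000 the 3 were CDX1, ELF3 and GATA6 (1.32, higher), against 6.03% of genes higher and 20.6% lower, and above 50 there were 4, FOXA2 added, also higher. The cause of the other changes was not tested.

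The median share of cells with a UMI over members and libraries was 33.4% thinned and 76.5% without thinning, since more UMIs per cell give more cells with one. Another random thinning moved no member's share by more than 2.93 points. In the cells under 50, TMM factors moved the split of 2-fold calls from 6.05% higher and 8.75% lower to 8.14% and 6.64%. Near the band limits lay 16 CNT and 36 3CK cells at 40 to 50 and 2 and 40 at 50 to 60 TTR UMIs per 10000. No paired analysis was possible because each condition is 1 library.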
